A study of Oncorhynchus mykiss with 72 samples.

Results

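The comparison described here is heat against control on day 1 in the montane strain of redband trout, Keithly. It sets 3 gill libraries of Keithly fish at 28 °C on day 1 against 3 gill libraries of Keithly fish at 15 °C, the control temperature, on day 1. These 6 libraries of the 72 in the series were chosen by strain, temperature and day as their columns are named. The series also covers a desert strain, Little Jacks, and the F1 cross of both strains, and in each of them the same temperatures were sampled on days 1, 3, 7 and 28, with 3 libraries per group. Every library was made from RNA that had been pooled over 3 fish samples out of 1 rearing tank, so the replicate error below is the spread between such pools. The labels do not say how long before sampling the fish had reached their temperature, and they give neither age nor sex.

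The gill is the organ through which a trout takes up oxygen, excretes ammonia and balances its salts, and its thin epithelium is in direct contact with the water. Redband trout are a form of rainbow trout, a cold-water salmonid, and 28 °C is far above the control temperature. When fish cells are warmed beyond what they are used to, proteins lose their fold, and heat shock transcription factors switch on genes for chaperones, proteins that refold or hold others. Transcripts of that kind are known to be scarce in unstressed tissue and to build up fast and far in heated tissue, while many other transcripts decline. In the deposited tables most features (the transcript units that reads were counted on) carry only an identifier, and 0 of 25137 identifiers were found in the table of known gene names. The genes, pathways and gill cell types behind the changes are therefore not named, and the labelled tissue could not be checked against markers.

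The values are a normalised signal, the authors' read count over an effective size of the library. Reads could be recovered from them exactly, and the 28 °C libraries held 12.2, 12.7 and 9.24 M reads (M, mega), against 4.88, 7.51 and 6.45 M in the 15 °C libraries. The authors list somewhat more matched reads, 9.86 to 13.4 M at 28 °C and 5.31 to 8.30 M at 15 °C. Shares of reads below are shares of the recovered reads. In the ranking of single features below, day 1 folds were not read from counts of 3 reads or fewer. Such counts stood for a signal of 0.326 to 0.506 at 28 °C and 0.342 to 0.561 at 15 °C, a limit that covers counting error only. The counts, size classes and medians of called features do include features with such counts. The authors' library table gives 40.3% ± 2.26 of quality reads matched to the transcriptome at 28 °C and 26.0% ± 3.98 at 15 °C (SD, n = 3 each, two-sided exact permutation p = 0.1, the smallest that 3 against 3 libraries allow). The quality weight that limma gives a library for its scatter about its group was 1.08 to 1.74 at 28 °C and 1.06 to 1.62 at 15 °C. Over the 24 Keithly libraries it was lowest, at 0.0816, in the shallowest, a 15 °C library of day 28 with 0.276 M reads, and next lowest, at 0.425, in a 28 °C library of day 3. These enter the day 1 test through the shared estimate of the spread. The median feature differed by 0.28 to 0.31 on the log2 scale between 2 libraries at 28 °C and by 0.31 to 0.34 between 2 libraries at 15 °C. Between a 28 °C library and a 15 °C library that median was 0.42 to 0.54, above every distance within a temperature.

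On day 1 at 28 °C, 1753 of 24174 features were higher and 1299 were lower than at 15 °C, by limma with a Benjamini-Hochberg adjusted p under 0.05 over all features. As a share of everything tested these were 7.25% and 5.37%, together 3052 features or 12.6%. Without adjustment, 5764 features had a p under 0.05. With 1 of the 6 libraries left out, 1288 to 1567 were called higher and 772 to 1068 lower. The lower count was the one that moved by more than 1.5 times, to 772 and 821 without replicate 2 or 3 at 28 °C and to 846 and 837 without replicate 1 or 3 at 15 °C. The rises reached much further than the falls. Of the higher features, 1279 had risen at least 2-fold, 542 at least 4-fold, 210 at least 8-fold, 94 at least 16-fold and 49 at least 32-fold. Of the lower ones, 790 had fallen at least 2-fold and 106 at least 4-fold, 4 passed 8-fold and 0 reached 16-fold. The median log2 fold change of the higher features was 1.48, with quartiles of 0.97 and 2.21, and that of the lower features was -1.12, with quartiles of -1.53 and -0.86, beside a median of -0.03 over all features. Fold changes are on the log2(signal + 0.5) scale, which understates the change of features with low signal. On that scale the signal at 15 °C sets a bound on how far a feature can fall, while a rise has no such bound. In gill tissue, fewer cells of a type and less RNA per cell cannot be told apart.

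The balance of rises and falls is relative to the authors' scaling, in which columns do not sum to 1 M. Column sums were 1.33, 1.60 and 1.56 M at 28 °C, against 0.914, 0.855 and 0.882 M at 15 °C. With every column set to a total of 1 M, the median of all features became -0.73 and the calls became 772 higher and 8371 lower. All 1299 features called lower stayed lower under that scaling, and 772 of the 1753 called higher stayed higher. The downward shift of the median itself favours keeping falls and losing rises. These counts therefore do not show that the falls are the firmer calls. Which direction holds more features therefore depends on the scaling, whereas rises of 16-fold and more are far larger than that shift of the median.

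**Figure D1:**
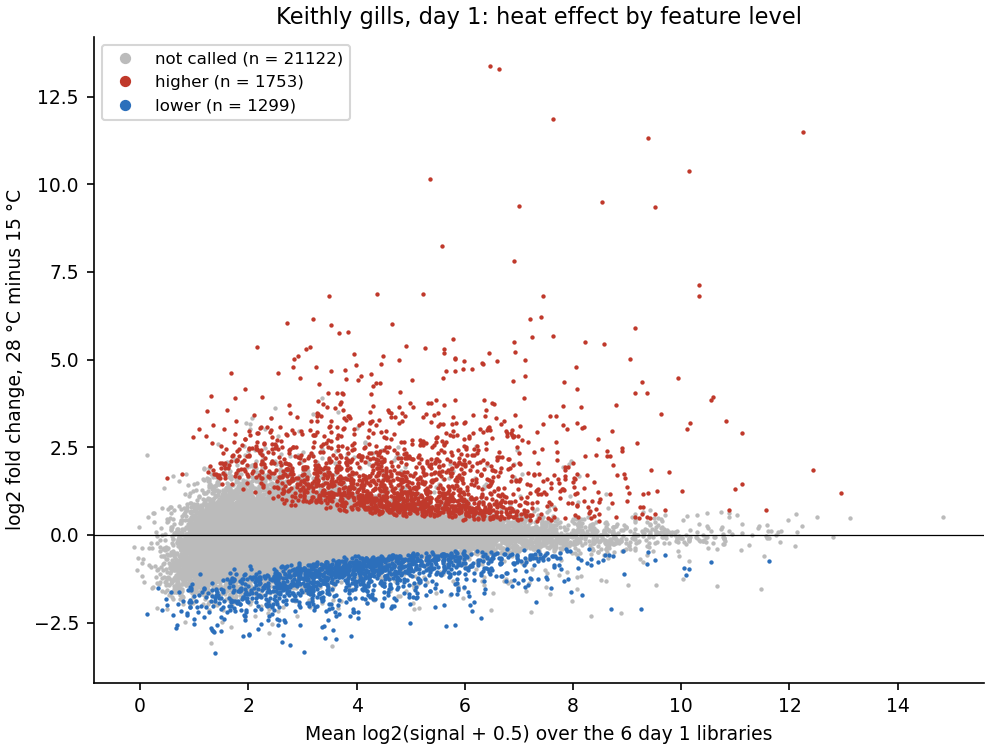
Each point is 1 of the features tested in Keithly gills on day 1, with its mean log2(signal + 0.5) over the 6 libraries on the horizontal axis and its log2 fold change, 28 °C minus 15 °C, on the vertical axis. The 1753 features called higher (red) reach 13.37, while the 1299 called lower (blue) end at -3.38, and the uncalled features (grey) spread more widely at low signal. The features at both ends do not meet the rule on reads and overlap used for the ranking below.

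The groups were well apart for nearly every called feature. In 1735 of the 1753 higher features all 28 °C values lay above all 15 °C values, and in 1278 of the 1299 lower features all lay below. Over all features, 18.4% had their 28 °C values above and 19.7% below those at 15 °C without overlap. A stricter reading sets the 3 heated day 1 libraries against the other 21 Keithly libraries, which include heated fish of later days. The day 1 heat values exceeded all 21 others in 1006 of the higher features, or 57.4%, where 5.39% of all features did so. They lay under all 21 others in 370 of the lower features, or 28.5%, against 1.93% of all features. Both readings use the day 1 values that made the calls. The selection therefore favours them, and they describe the called features without adding support for the calls. Some called features were close to the detection limit: 46 of the higher and 72 of the lower had at least 1 day 1 library at or under 3 reads. Of the higher ones, 6 were at or under 3 reads in all 15 °C libraries and rose at least 12.2-fold to at least 67.0-fold over that limit, taken as the mean of the 3 libraries. Of the lower ones, 4 were at or under 3 reads in all 28 °C libraries, with bounds of at least 4.42-fold to at least 23.4-fold lower.

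Named below are the largest changes in each direction among called features that had more than 3 reads in all 6 libraries and no overlap between the temperatures. Feature g03437 had the largest rise under that rule. Its signal was 9155, 15000 and 12940 in the 28 °C libraries, against 2.24, 3.19 and 2.87 in the 15 °C libraries. It was scarce in every control pool, though at no fewer than 12 reads in any of the 6 libraries. In every heated pool it was among the abundant transcripts, with a log2 fold change of 11.87 (SE 0.42, limma adjusted p 5.63e-15). Under every alternative tried its log2 fold change lay between 11.14 and 12.16.

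Feature g01823 ranked second by fold and first by abundance. It had 174400, 329600 and 314400 in the 28 °C libraries, against 124.9, 78.0 and 76.9 in the 15 °C libraries, a log2 fold change of 11.49 (SE 0.33, limma adjusted p 2.15e-16). It was less scarce than g03437 in control gills, at no fewer than 562 reads in any of the 6 libraries. At 28 °C it was the most abundant feature of each library and alone took 13.1%, 20.6% and 20.2% of the reads, while the most abundant feature of each 15 °C library, not g01823, took 2.53%, 3.04% and 2.80%.

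The 8 features ranked 3 to 10 followed the same pattern. They are given by rank because identifiers are printed for only 2 features each way, and no gene name is known for any of them. Rank 3 had 28230, 38560 and 35280 at 28 °C, against 19.8, 9.45 and 11.2 at 15 °C. Rank 4 had 34520, 49230 and 42150 at 28 °C, against 44.7, 25.5 and 25.1 at 15 °C. In both, the heated libraries lay close together and far above every control library, at log2 fold changes of 11.31 (SE 0.30) and 10.38 (SE 0.33). Over all 10 the signal ran from 714.7 to 329600 at 28 °C and from 1.10 to 130.3 at 15 °C, with log2 fold changes of 7.13 to 11.87 and limma adjusted p of at most 7.47e-08. Together the 10 took 27.2% ± 4.75 of the reads at 28 °C and 0.0351% ± 0.00745 at 15 °C (SD, n = 3 each), values the ranking itself favours.

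The falls were smaller on the log2 scale. The deepest under the same rule was g01995, with 1.85, 2.52 and 1.85 in the 28 °C libraries, against 22.3, 21.3 and 35.0 in the 15 °C libraries. It fell by 3.35 on the log2 scale (SE 0.97, limma adjusted p 0.0237), a call kept in 19 of 25 alternatives. The call was lost whichever day 1 library was left out, with limma adjusted p of 0.0511 to 0.0869. Feature g16046 had 2.28, 2.78 and 0.843 in the 28 °C libraries, against 19.6, 17.4 and 22.5 in the 15 °C libraries. Its fall of -3.13 on the log2 scale (SE 0.40, limma adjusted p 6.27e-06) passed in every alternative, between -3.73 and -2.49. Both SEs rest on the spread within groups over all 24 Keithly libraries, not on the day 1 libraries alone. The 10 largest falls ran from -3.35 to -2.68, with 0.435 to 10.3 at 28 °C and 5.69 to 75 at 15 °C. They held 0.00192% ± 0.000459 of the reads at 28 °C and 0.0282% ± 0.00712 at 15 °C (SD, n = 3 each).

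**Figure D2:**
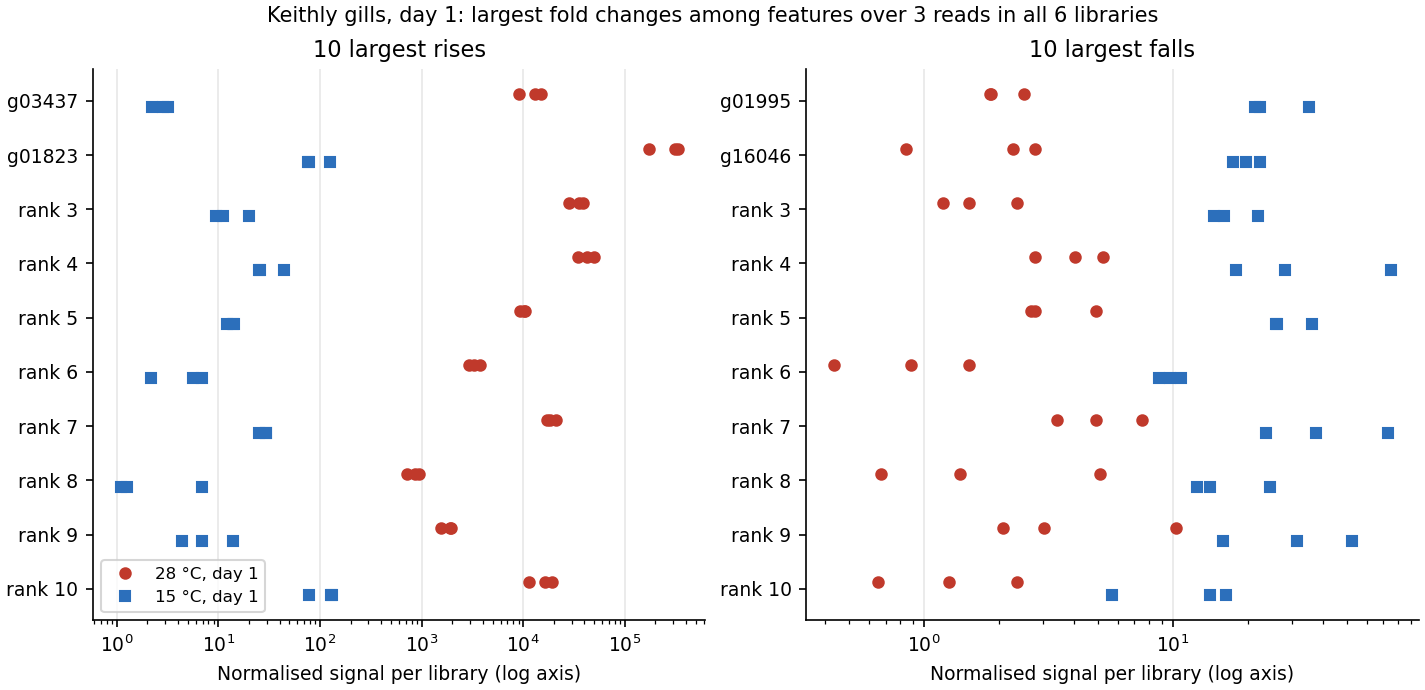
Normalised signal of each library on a log axis for the 10 largest rises (left) and the 10 largest falls (right) in Keithly gills on day 1, with 28 °C as red circles and 15 °C as blue squares. The rises span 714.7 to 329600 at 28 °C against 1.10 to 130.3 at 15 °C, and the falls span 0.435 to 10.3 at 28 °C against 5.69 to 75 at 15 °C.

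Calls in both directions were more frequent among features with higher signal, where the standard error was smaller. The features were divided into 5 equal classes by their mean signal in the 15 °C libraries of days 3, 7 and 28, which take no part in the day 1 difference. From the lowest to the highest class, 4.80%, 4.22%, 5.75%, 9.58% and 11.9% of features were called higher, and 0.786%, 1.78%, 5.17%, 8.60% and 10.5% were called lower. The median standard error was 0.60 in the lowest class and 0.20 in the highest. The median log2 fold change of the higher features was 2.40 in the lowest class and 1.03 in the highest, and that of the lower features was -1.79 and -0.88. At the larger error of the lowest class, a missing call does not show that a scarce transcript was stable.

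The transcripts that are most abundant in control gills were called in both directions. Of the 10 features with the highest signal at 15 °C on the other days, 1 was higher, 0 were lower and 9 did not pass, with log2 fold changes of -0.07 to 1.18. Of the top 100, 6 were higher and 7 were lower, or 6% and 7%, and of the top 1000, 103 and 107, or 10.3% and 10.7%. Over all features 7.25% were higher and 5.37% lower, so the share called in the top 100 was near that background and the share in the top 1000 above it. In the highest signal class described above, 11.9% were higher and 10.5% lower. Beside that class, which is closer in signal, the top 1000 was near the background and the top 100 under it. Although their median log2 fold change was -0.05 for the top 100 and -0.04 for the top 1000, they took a smaller part of the library. Of all reads, the top 100 took 17.7% ± 1.78 at 28 °C and 27.3% ± 0.889 at 15 °C (SD, n = 3 each), and the top 1000 held 40.0% ± 2.99 at 28 °C and 57.5% ± 0.866 at 15 °C.

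Reads at 28 °C were concentrated in fewer features. The 10 most abundant features of each library, whichever they were, held 25.7%, 34.1% and 33.2% of reads at 28 °C, against 9.60%, 9.52% and 7.90% at 15 °C. That is 31.0% ± 4.63 at 28 °C and 9.01% ± 0.958 at 15 °C (SD, n = 3 each), and with 3 against 3 libraries the two-sided exact permutation p was 0.1, the smallest possible. The top 100 held 49.6% ± 3.58 at 28 °C and 28.0% ± 1.09 at 15 °C (exact permutation p = 0.1). To reach 50% of the reads took 153, 75 and 92 features at 28 °C, against 501, 572 and 586 at 15 °C. Among the 10 most abundant at 28 °C, 8, 8 and 9 were features called higher, against 1 in each 15 °C library. Over all features 7.25% were called higher. A high rank at 28 °C favours such a call, because the same values made it, so these counts are a description.

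**Figure D3:**
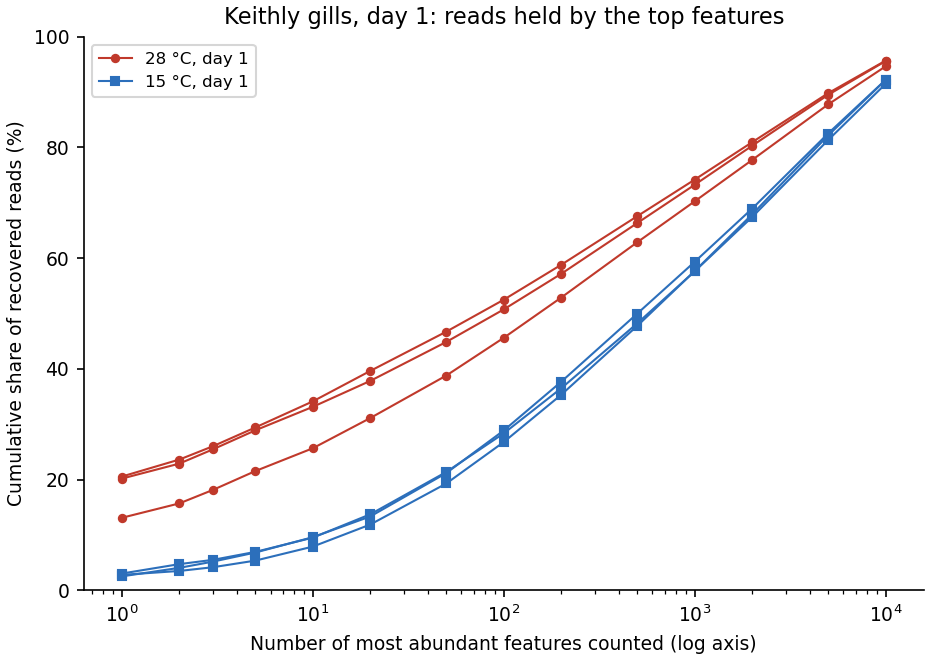
Cumulative share of recovered reads (%) held by the most abundant features of each Keithly day 1 library, against the number of features counted on a log axis, with 28 °C in red and 15 °C in blue. The 28 °C lines start at 13.1% to 20.6% for the single most abundant feature and the 15 °C lines at 2.53% to 3.04%, and the lines of the 2 temperatures do not cross.

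Split by the size of the rise, the extra reads lay mainly in the few features with the steepest rises. The 1753 higher features held 42.3%, 52.6% and 49.9% of reads at 28 °C, against 8.72%, 8.79% and 9.53% at 15 °C. Within them, the 94 that rose at least 16-fold held 27.0%, 36.6% and 34.6% at 28 °C, against 0.278%, 0.203% and 0.215% at 15 °C. The 448 that rose 4- to 16-fold held 5.93% ± 0.316 at 28 °C and 1.32% ± 0.0621 at 15 °C, and the 1211 that rose less held 9.61% ± 0.152 at 28 °C and 7.46% ± 0.443 at 15 °C (SD, n = 3 each). The 1299 lower features held 2.61% ± 0.390 at 28 °C and 8.66% ± 0.479 at 15 °C, and the features not called held 49.1% ± 4.95 at 28 °C and 82.3% ± 0.755 at 15 °C. These sets were chosen by the difference itself, so their shares are a description of where the reads lie.

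Depth and matching differed between the temperatures along with these changes. The heated libraries were the deeper ones, without overlap, and a larger part of their quality reads matched the transcriptome, again without overlap. With the reads of the 6 libraries thinned to the smallest of them, 3125 features were called, 2832 of them among the original 3052, so the count was about as large at equal depth. The part of the matching rate in the result was not tested. More than 3 reads were found for 23920 ± 266 features at 28 °C and 24080 ± 49 at 15 °C (SD, n = 3 each, exact permutation p = 0.5), and after thinning for 23080 ± 425 at 28 °C and 24010 ± 26.9 at 15 °C (exact permutation p = 0.1). At equal depth each heated library thus had more than 3 reads for fewer features, 22730 to 23550, against 23980 to 24030 in the 15 °C libraries.

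The only features that the files name are 9 of ribosomal RNA, the structural RNA of ribosomes, which a depletion kit had removed in part before sequencing. The 6 mitochondrial ones (12S and 16S) and the 3 nuclear ones (18S and 28S) therefore count a residue. Their summed share of reads was 0.657% ± 0.0950 at 28 °C and 0.806% ± 0.321 at 15 °C (SD, n = 3 each, exact permutation p = 0.7). The mitochondrial share was 0.234% ± 0.0505 at 28 °C and 0.329% ± 0.0812 at 15 °C (exact permutation p = 0.3), and the nuclear share was 0.423% ± 0.110 at 28 °C and 0.477% ± 0.252 at 15 °C (exact permutation p = 0.9), none of which passed. The nuclear difference lay within the spread between pools, while the mitochondrial one exceeded either SD. The total and nuclear differences change sign when the second 15 °C library is left out, and the nuclear one also without the third 28 °C library, at 0.00916 points.

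Feature by feature, 1 of the 9 ribosomal RNA features passed the test, and only just. rRNA_18S_1, from the small nuclear subunit, had 45.0, 331.1 and 158.7 in the 28 °C libraries, against 78.0, 23.0 and 14.4 in the 15 °C libraries. The groups overlapped, and its log2 fold change of 2.15 (SE 0.71, limma adjusted p 0.0499) lost the call in 9 of 25 alternatives, 4 of which leave out 1 library. rRNA_28S_2, from the large nuclear subunit, had 603.9, 467.0 and 420.4 in the 28 °C libraries, against 59.7, 403.8 and 151.1 in the 15 °C libraries. Its values did not overlap between temperatures but varied widely within the controls, and its log2 fold change of 1.67 (SE 0.70, limma adjusted p 0.134) did not pass. It passed in 4 of 25 alternatives, with limma adjusted p of 0.0497 with array quality weights, 0.0311 on the 6 day 1 libraries alone, 0.0407 without the second 15 °C library and 0.0453 with the 15 °C groups of all days as baseline.

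The abundant mitochondrial rRNA_12S_2, from the small subunit, had 3133, 2470 and 3611 at 28 °C, against 2089, 3052 and 2615 at 15 °C, overlapping values with a log2 fold change of 0.25 (SE 0.29, limma adjusted p 0.706). rRNA_12S_1 had 29.6, 29.4 and 42.8 at 28 °C, against 14.2, 23.1 and 19.6 at 15 °C, with no overlap and a log2 fold change of 0.83 (SE 0.45, limma adjusted p 0.289, and 0.0231 on the 6 day 1 libraries alone). For the others, the log2 fold changes were 0.22 for rRNA_12S_3, 0.53 for rRNA_16S_1, 0.76 for rRNA_16S_2, 0.88 for rRNA_16S_3 and 0.59 for rRNA_28S_1, all with overlapping groups and limma adjusted p of 0.325 to 0.661. All 9 values were positive on the authors' scaling, whereas with columns set to 1 M reads those of rRNA_12S_2, rRNA_12S_3, rRNA_16S_1 and rRNA_28S_1 were negative, so no common direction is read. By kind of identifier, 25 of the 554 features labelled as singletons were called higher and 13 lower, or 4.51% and 2.35%, beside 7.31% and 5.45% of the 23611 others that are not ribosomal. The singletons had a lower median signal, 4.32 against 9.02 at 15 °C on the other days.

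The next question is how much of the day 1 response was present on later days, each of which has its own 28 °C and 15 °C libraries. Among the controls of day 28 is the library with 0.276 M reads. There, 3 reads stood for a signal of 9.24, and only 9953 features had more than 3 reads, which limits the day 28 results. Of the 1753 features higher on day 1, 607 were also called higher on day 3, 455 on day 7 and 537 on day 28, or 34.6%, 26.0% and 30.6%. The share of all features called higher on those days was 4.03%, 2.98% and 5.05%. Seen from the later lists, features already higher on day 1 made up 62.3% of the 975 on day 3, 63.1% of the 721 on day 7 and 44.0% of the 1221 on day 28. In all, 914 of the day 1 risers were called higher on no later day and 260 on all 3. A missing call on a later day does not show that the effect was absent. On days 3, 7 and 28, 87.91%, 83.57% and 86.25% of the 1753 had a positive log2 fold change. The median log2 fold change of the 1753 was 0.62, 0.50 and 0.57 on days 3, 7 and 28, beside -0.02, -0.04 and 0.17 over all features.

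The falls were followed in the same way. Of the 1299 features lower on day 1, 256 were lower on day 3, 202 on day 7 and 104 on day 28, or 19.7%, 15.6% and 8.01%, beside 3.22%, 2.66% and 1.76% of all features. They were 32.9% of the 778 lower features of day 3, 31.4% of the 644 of day 7 and 24.5% of the 425 of day 28. Of these features, 922 were lower on no later day and 46 on all 3. On days 3, 7 and 28, 9, 13 and 34 of the 1299 were called higher, beside 4.03%, 2.98% and 5.05% of all features. A negative log2 fold change was found in 81.68%, 77.44% and 66.2% of the 1299 on those days. Their median log2 fold change was -0.45, -0.40 and -0.18 on the later days. Whether rises and falls differed in how many were called again was not tested.

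Grouped by the size of the day 1 effect, the steepest rises still had the largest medians on the later days. Of the 94 features raised at least 16-fold, 77, 76 and 64 were higher on days 3, 7 and 28, with median log2 fold changes of 5.02 on day 1 and 2.94, 2.65 and 2.28 on those days. Of the 448 raised 4- to 16-fold, 218, 182 and 199 were called again, with medians of 2.54 on day 1 and 1.16, 0.95 and 0.98 later. Of the 1211 raised less, 312, 197 and 274 were called again. Of the 106 lowered at least 4-fold, 31, 26 and 20 were lower on days 3, 7 and 28, with medians of -2.23 on day 1 and -1.11, -0.80 and -0.39 later. A set chosen for its size on day 1 will tend to be smaller on any other day, so these medians alone do not measure a decline.

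**Figure D4:**
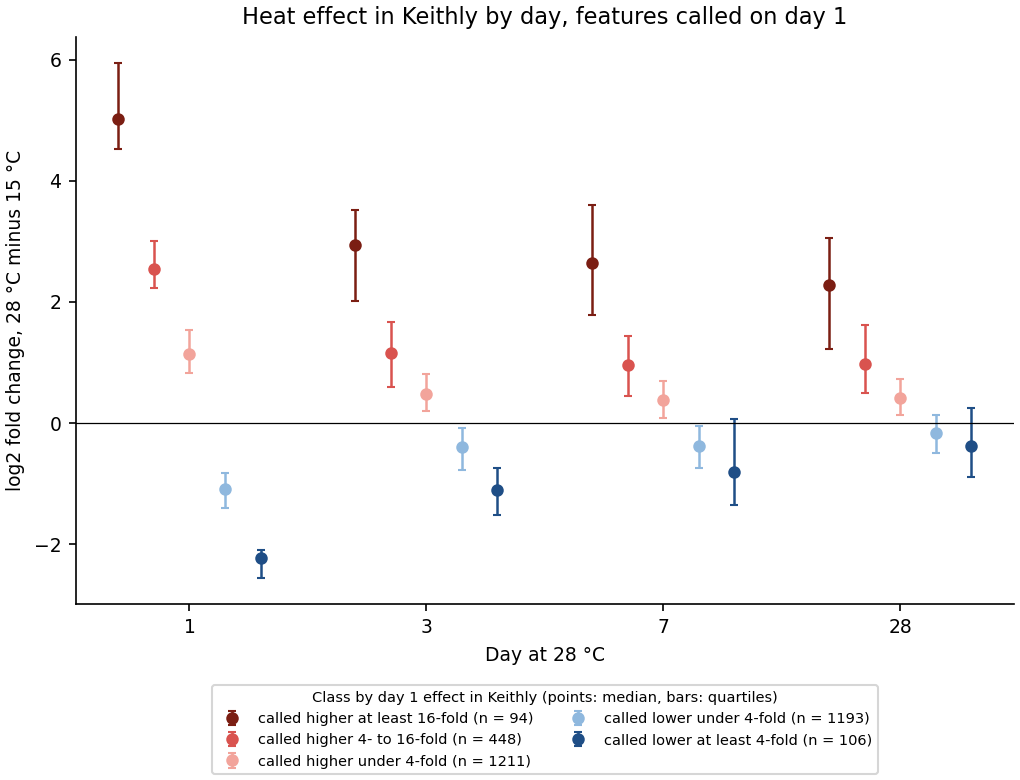
Median log2 fold change, 28 °C minus 15 °C, on days 1, 3, 7 and 28 for Keithly features called on day 1, grouped by the size of their day 1 effect, with bars from the lower to the upper quartile. The class raised at least 16-fold has medians of 5.02, 2.94, 2.65 and 2.28, and every class lies nearer to 0 on the later days than on day 1, as selection on day 1 favours.

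The change of the heat effect between days was tested directly for each feature. The effect was more positive on day 1 than on day 3 for 435 features and less so for 204, which is 1.8% and 0.844% of those tested, with 2849 at an unadjusted p under 0.05. Against day 7 the counts were 561 and 256, or 2.32% and 1.06% (3231 unadjusted), and against day 28 they were 568 and 506, or 2.35% and 2.09% (4162 unadjusted). Among the 1753 day 1 risers, 347, 477 and 483 had a stronger rise on day 1 than on days 3, 7 and 28, and 4, 4 and 4 a weaker one. Among the 1299 that fell, 138, 174 and 307 had a deeper fall on day 1. Of the 94 steepest rises, 58, 65 and 76 passed, and none of the 94 was stronger on a later day. All of these counts share the day 1 libraries, which also chose the features. Single libraries moved them too: without the second 28 °C library of day 1 the totals of 639, 817 and 1074 became 419, 511 and 710. Without the first 15 °C library of day 7 that day's total became 524, and without the third 15 °C library of day 28 the last became 1723, with 636 more positive and 1087 less so. With any 1 library left out, the less positive counts ran from 112 to 208 for day 3, 146 to 240 for day 7 and 282 to 1087 for day 28. Columns set to 1 M reads turned the splits to 202 and 737 for day 3, 212 and 1235 for day 7, and 302 and 4534 for day 28.

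Among the named features, g03437 averaged 12370 ± 2966 at 28 °C on day 1 and 2155, 1198 and 678.3 at 28 °C on days 3, 7 and 28, while its 15 °C means stayed between 1.42 and 3.84. Its heat effect was larger on day 1 than on day 3 by 1.84 on the log2 scale, which did not pass (SE 0.59, limma adjusted p 0.122), and than on days 7 and 28 by 2.80 (limma adjusted p 0.00773) and 4.59 (SE 0.59, limma adjusted p 5.36e-05), which did. On every day it remained a feature of low signal at 15 °C and was called higher at 28 °C. In the shallowest control library of day 28, 3 reads stood for a signal of 9.24, above the 15 °C mean of g03437 on that day. The excess of day 1 over day 28 passed in 16 of 16 alternatives, which include leaving out that library. For g01823 the day 1 effect exceeded those of days 3 and 7 by 1.76 and 1.66, with limma adjusted p of 0.0400 and 0.0485 that were lost in 10 of 15 alternatives each, and that of day 28 by 2.99 (SE 0.46, limma adjusted p 0.000377). Of the 10 largest rises, 9 were still called higher on each of days 3, 7 and 28, and the excess of day 1 passed the test for 7, 8 and 10 of them. Over all features such an excess passed for 1.8%, 2.32% and 2.35%. The 10, which include g03437 and g01823, were ranked by their day 1 change, which favours an excess of day 1.

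The feature ranked 8 among the rises was the exception. It had 714.7, 936.7 and 866.7 at 28 °C on day 1, against 6.92, 1.25 and 1.10 at 15 °C on day 1, but its 28 °C means on days 3, 7 and 28 were 5.99, 14.8 and 9.49, with 15 °C means of 2.91, 4.58 and 3.21. Of the 10 it alone was called on no later day (limma adjusted p 0.753, 0.357 and 0.135). Its day 1 effect exceeded that of day 3 by 7.62 on the log2 scale (SE 1.11, limma adjusted p 0.000322), of day 7 by 6.82 (limma adjusted p 0.000741) and of day 28 by 6.28 (SE 1.11, limma adjusted p 0.00122). It was singled out after its values were seen.

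Of the 10 largest falls, 7, 6 and 3 were lower on days 3, 7 and 28 as well, and the difference from day 1 passed for 1, 1 and 4. Over all features the effect was lower on day 1 for 0.844%, 1.06% and 2.09%. The ranking by day 1 change favours such a difference. g16046 stayed lower on each day, with 28 °C means of 4.29, 6.57 and 5.37 and 15 °C means of 18.6, 25.3 and 14.4 on days 3, 7 and 28, and log2 fold changes of -2.21, -1.92 and -1.33 (limma adjusted p 0.00104, 0.00492 and 0.0479). g01995 was lower on day 3, at -3.81 (limma adjusted p 0.0167), and did not pass on day 7, at -0.72 (limma adjusted p 0.795), or day 28, at -2.61 (limma adjusted p 0.109).

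The controls of day 1 were compared with those of the other days, since a shift there would look like a heat effect. In the 15 °C libraries of day 1 against the 15 °C groups of days 3, 7 and 28, 27 of all 24174 features were higher and 129 lower. Of the 1753 risers 3 were higher and 19 lower in that comparison, and of the 1299 that fell 9 were higher and 9 lower. The risers were thus lower in these controls more often than all features, and those that fell were higher more often. In the opposite directions both sets were also called a little more often than all features, on counts of 3 and 9. Calling used the same 15 °C libraries, which favours risers that are lower there and falls that are higher there. How far such control shifts enter the heat effect of these features was not tested. The median difference between control days was 0.07 on the log2 scale for the features that fell and 0.06 for all features, and closer to 0 for the risers. With the 15 °C groups of all 4 days as the baseline, 5523 features were called, 2917 higher and 2606 lower, among them 1709 of the 1753 and 1232 of the 1299.

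The last question is whether the day 1 heat effect looked different in the desert strain or the F1 cross, each measured against its own 15 °C libraries and normalised in its own table. Of the features higher in Keithly, 1725 were measured in Little Jacks and 1131 were called higher there too, or 65.6%, where 7.12% of all Little Jacks features were. They were 65.3% of the 1733 higher in Little Jacks. In the F1 cross 1148 of 1732 were called higher, or 66.3%, against 6.7% of all features, and they were 71.4% of the 1609 higher there. Opposite calls were 2 and 1, where 8.33% and 5.78% of all features were called lower. For these risers the median log2 fold change was 1.48 in Keithly, the strain that selected them, against 1.19 in the desert strain and 1.34 in the F1 cross.

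For the features lower in Keithly, 700 of 1296 were lower in Little Jacks, or 54.0% beside 8.33% of all features, and 631 of 1293 in the F1 cross, or 48.8% beside 5.78%. They formed 34.5% of the 2027 lower features of Little Jacks and 45.5% of the 1388 of the F1 cross. Their median log2 fold change was -1.12 in Keithly, against -0.86 in the desert strain and -0.91 in the F1 cross. Among the 94 steepest Keithly rises, 90 of 91 were called in Little Jacks and 91 of 92 in the F1 cross, with medians of 5.02 in Keithly, 4.80 in the desert strain and 5.15 in the F1 cross. All 10 of the largest rises were called higher in both. Of the 10 largest falls, 4 were lower and 1 was higher in Little Jacks, and 7 were lower in the F1 cross.

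**Figure D5:**
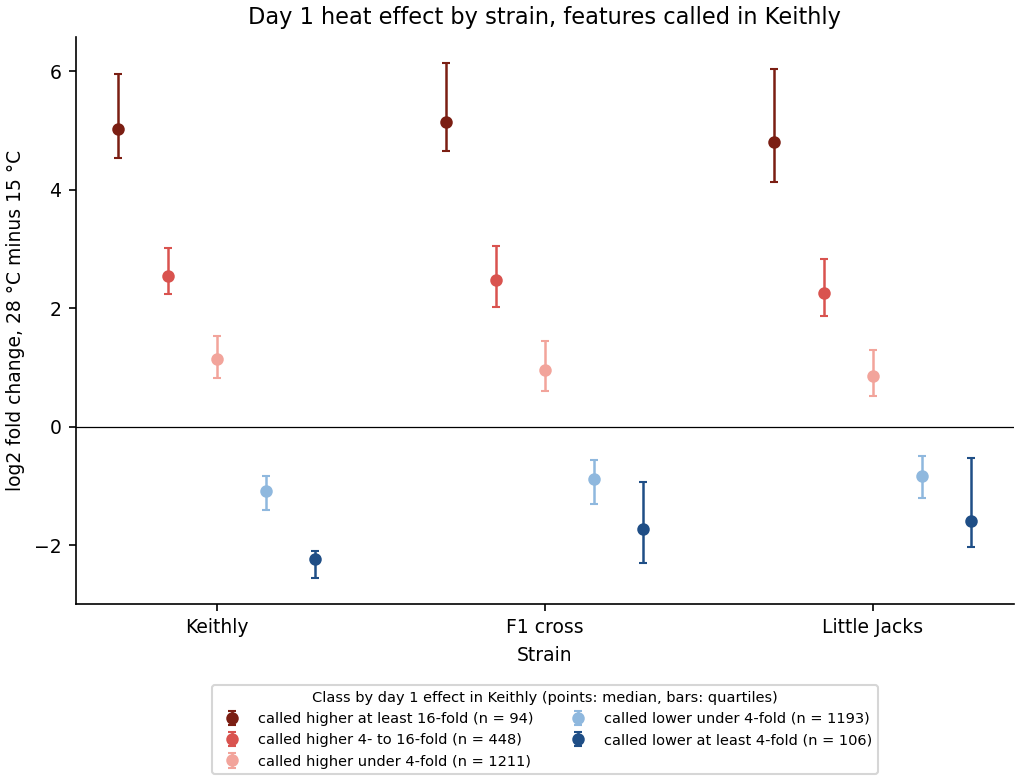
Median log2 fold change, 28 °C minus 15 °C, on day 1 in Keithly, the F1 cross and Little Jacks for features called in Keithly, grouped by the size of their Keithly effect, with bars from the lower to the upper quartile. The class raised at least 16-fold has medians of 5.02, 5.15 and 4.80, and the class lowered at least 4-fold has -2.23, -1.72 and -1.59, with the strain used for the selection at the left.

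Tested feature by feature over 23234 features, the day 1 heat effect differed between Keithly and Little Jacks for 1 feature upward and 1 downward, or 0.0043% each, with 1295 at an unadjusted p under 0.05. Between Keithly and the F1 cross it differed for 3 upward and 1 downward, or 0.0129% and 0.0043%, with 892 unadjusted. With 1 of the day 1 libraries of the strains compared left out, these totals ranged from 0 to 8 and from 0 to 4. For g03437 the effect in Keithly exceeded that in Little Jacks by 1.06 on the log2 scale and that in the F1 cross by 0.25 (limma adjusted p 0.994 and 1.00), and for g01823 by 0.41 and 0.05 (0.994 and 1.00). None of these passed, which does not show that the strains respond alike.

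The single Keithly call against Little Jacks in the downward direction was the feature ranked 10 among the falls. It had 0.652, 1.26 and 2.36 at 28 °C, against 16.3, 5.69 and 14.1 at 15 °C in Keithly, a log2 fold change of -2.68 (SE 0.39, limma adjusted p 3.06e-05). Its effect was 0.87 in Little Jacks (limma adjusted p 0.188) and -4.61 in the F1 cross (limma adjusted p 3.96e-07), and Keithly minus Little Jacks was -3.55 (limma adjusted p 0.0153). Feature g01995, the deepest Keithly fall under the rule above, was called in the other direction in Little Jacks, at 2.45 (limma adjusted p 0.0238), and had -1.66 in the F1 cross (limma adjusted p 0.166). Its difference between Keithly and Little Jacks, -5.80 on the log2 scale, did not pass (limma adjusted p 0.0776).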

How the data were processed

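Gill RNA was purified, depleted of ribosomal RNA and made into ScriptSeq libraries, per the labels' protocols. The tools named are CASAVA 1.8 and, with no version, Bowtie and edgeR, per the submitters' processing notes. No source used here gives the reference transcriptome, filters or strand setting. For each strain the authors deposited a table of normalised signal, and the labels call it CPM although columns do not sum to 1 M (M, mega). The authors' library table adds other quantities, quality and matched reads in M and the matched percent. Of the Keithly values, 100% were whole multiples of a step within 0.01, which gave reads. It holds 24174 features, and 4261 rows with no identifier and no values were left out.

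With R 4.3.3, limma 3.58.1 (trended prior, 1 mean per group, 24 Keithly libraries, or 72 for strains) was run on log2(signal + 0.5). Features needed a signal of 1 in 3 libraries, which removed 0. Calls are two-sided at a Benjamini-Hochberg adjusted p under 0.05, and limma adjusted p come from these fits unless an alternative is named. edgeR 4.0.16 (quasi-likelihood) and DESeq2 1.42.0 on the recovered reads were alternatives. The fits were tried on simulated data with rises and falls in equal number. Those data held no rises as steep as the largest seen here, so the trial does not bear on the scaling of the columns. Single values per library were compared with exact permutation tests.

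The features given individually are the 10 largest day 1 changes each way among called features with over 3 reads in all 6 libraries and no overlap between temperatures, with identifiers for 2 each way, plus all ribosomal RNA features. The libraries, rules and lists were chosen with earlier results of these data known. Because 0 of 25137 identifiers matched a gene name (RefSeq assembly USDA_OmykA_1.1), the gene and marker lists drawn up could not be used. Columns were tied to groups by name, and the S number in a column name matches no sample label, so it serves as a replicate name only. For the F1 cross at 28 °C on day 1 the sample descriptions name another strain's table, and the column names were followed. Overlapping or near-identical genes could share reads in the authors' counting, which could not be checked.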

Additional observations from a re-analysis of the deposited data

Results flagged for a closer look

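Each result here was picked out because the heat effect differed between days or strains by a test of the difference itself, limma on all libraries concerned, and none of the differences is explained. The day 1 heat effect of g03437 exceeded that of day 7 by 2.80 on the log2 scale (adjusted p 0.00773) and that of day 28 by 4.59 (adjusted p 5.36e-05), calls kept in 15 of 15 and 16 of 16 alternatives. That of g01823 exceeded day 3 by 1.76 (adjusted p 0.0400), day 7 by 1.66 (adjusted p 0.0485) and day 28 by 2.99 (adjusted p 0.000377). The first pair of calls was lost in 10 of 15 alternatives each, with adjusted p up to 0.127 and 0.143, and the last was kept in 16 of 16. Because g03437 and g01823 were chosen by their day 1 change, an excess of day 1 was favoured. For rRNA_18S_1 the day 1 effect exceeded that of day 28 by 3.75 (adjusted p 0.0331), a call lost in 9 of 16 alternatives with adjusted p up to 0.116, and its 28 °C and 15 °C values overlapped on day 1.

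Over all features the difference passed for 639 against day 3, 817 against day 7 and 1074 against day 28. Between strains it passed for 2 features against Little Jacks and 4 against the F1 cross. The feature ranked 10 among the day 1 falls was 1 of the 2 against Little Jacks, with a Keithly minus Little Jacks difference of -3.55 (adjusted p 0.0153). That call was lost in 5 of 14 alternatives, with columns set to 1 M reads and without 1 of 4 libraries: replicate 1 of either temperature in Keithly, and replicate 2 or 3 at 15 °C in Little Jacks.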

How the results depend on the processing

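The total of 3052 day 1 calls became 9143 with columns set to 1 M reads, 5851 with array quality weights, 4958 from only the 6 day 1 libraries and 5523 with the 15 °C groups of all 4 days as baseline. The last was chosen after seeing the data, as were thinning and leaving out day 28 libraries. It was 4161 with edgeR, 4405 with DESeq2, 4294 without the 6 day 28 libraries, 4220 without the library under 1 M reads, and 2060 to 2635 without 1 day 1 library. Other pseudocounts, filters, priors and scalings by size factors, and thinning, gave 2857 to 3345. Every one of the 3052 was also called with array weights.

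Setting columns to 1 M reads gave 939, 1447 and 4836 calls for day 1 minus days 3, 7 and 28, and 0 and 2 for Keithly minus Little Jacks and minus the F1 cross. Leaving out 1 library gave 419 to 601, 511 to 749, 710 to 1723, 0 to 8 and 0 to 4. That scaling also made the log2 fold changes of rRNA_12S_2 -0.51, of rRNA_12S_3 -0.53, of rRNA_16S_1 -0.23 and of rRNA_28S_1 -0.17. The day 1 minus day 28 difference of g01995 ran from -1.72 to 1.03 without 1 library and was 0.14 without the library under 1 M reads. The ribosomal share, 28 °C minus 15 °C, ran from -0.245 to 0.0357 points, and its nuclear part from -0.147 to 0.0891 points. The cause of these moves was not tested.

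With the S number of the columns as a replicate block, 2925 features were called, 1706 higher and 1219 lower, and 2860 were shared with the 3052. The numbers come from no sample label, and deviations of same-numbered day 1 libraries correlated at 0.0252, 0.177 and 0.0999. Differently numbered libraries were not compared, so whether the numbers mark a pairing cannot be told from these values. A block for the rearing tank was not run, because the tank of each library is not known here. Depth limits the scarce features: 23312 of 24174 had more than 3 reads in all 6 libraries.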
